A study of Mus musculus with 8 samples.

Results

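The cardiac sarcomere and calcium handling genes are 37 genes that build or regulate the contractile apparatus of heart muscle, and their transcripts were compared in whole mouse embryos with and without Arid3b. They were taken by name, as the probes whose gene name in the array files is one of the 37, which gave 76 probes, and 36 of the genes were measured among 17099 genes tested. Arid3b-null embryos at embryonic day 9, in 4 pools, were compared with wild-type embryos of the same stage, in 4 pools. Each pool held total RNA of 3 to 4 whole embryos and was read on its own 1-colour Agilent array. The sources used here give neither the mutant allele nor the strain nor the litters, so a p-value reflects only the spread among these pools, which may be technical. Of the 37 genes, 4 were treated as atrial (Myl4, Myl7, Sln, Myh6), 3 as ventricular (Myl2, Myl3, Myh7) and 30 as shared, names that describe where these genes are known to predominate later in development.

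In striated muscle, myosin heavy and light chains form the thick filament, and actin with troponin forms the thin filament that they pull. Calcium enters through the L-type channel, is released through the ryanodine receptor, and is pumped back by Serca, the product of Atp2a2, which phospholamban and sarcolipin hold in check. In the embryonic heart tube the atrial and ventricular isoforms are still widely shared between chambers, and they separate as the chambers mature. A CArG box is the sequence that serum response factor, with its partner myocardin, is known to bind in the promoters of many contractile genes.

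The probes below are shown because the values of these genes rest on them. Each is 60 bases long, and the coordinates are those of the array files on mm7. The Acta1 probe lies at chr8:122479438-122479497 on the minus strand and the Csrp3 probe at chr7:45051358-45053272 on the minus strand. The Myh6 probe lies at chr14:49813005-49813064 on the minus strand and the Myl3 probe at chr9:110466830-110467124 on the plus strand. The brighter Myl4 probe lies at chr11:104693149-104693519 on the plus strand and the second at chr11:104693162-104693532 on the plus strand. Of the probes printed, those for Csrp3, Myl3 and Myl4 cover more genome than their length and so span an intron. Capitals mark the 47 bases that the Myl4 probes share.
Acta1: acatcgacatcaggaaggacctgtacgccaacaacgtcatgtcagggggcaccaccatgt
Csrp3: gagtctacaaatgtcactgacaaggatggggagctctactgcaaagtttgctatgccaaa
Myh6: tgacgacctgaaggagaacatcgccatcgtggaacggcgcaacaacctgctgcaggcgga
Myl3: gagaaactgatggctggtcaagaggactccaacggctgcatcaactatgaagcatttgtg
Myl4, brighter probe: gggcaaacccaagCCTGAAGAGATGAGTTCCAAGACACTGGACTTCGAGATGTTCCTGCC
Myl4, second probe: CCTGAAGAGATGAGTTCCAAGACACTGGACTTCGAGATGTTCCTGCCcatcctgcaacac
The Myl4 pair therefore reads nearly the same stretch of transcript and does not give separate evidence. The same holds for the Myh7 probes, which share 55 bases, and the Smyd1 probes, which share 39. Acta1 codes for skeletal actin, a protein nearly identical to the cardiac and smooth muscle actins. The Acta1 value is uncertain, because whether its probe also binds their transcripts was not tested.

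The promoter windows below are shown because 7 members hold a CArG box in the 250 bases before to 50 bases after a RefSeq transcription start. They are RefSeq sequences on GRCm38.p6, and capitals mark the box. The windows are chr8:123894819-123894868 (minus strand) for Acta1, chr2:114052893-114052942 (minus strand) for Actc1, chr14:34588687-34588736 (minus strand) for Ldb3, chr9:110763573-110763622 (plus strand) for Myl3, chr11:5898814-5898863 (minus strand) for Myl7, chr17:71019438-71019487 (plus strand) for Myom1 and chr2:17462989-17463038 (minus strand) for Nebl.
Acta1: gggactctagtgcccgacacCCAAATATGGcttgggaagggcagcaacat
Actc1: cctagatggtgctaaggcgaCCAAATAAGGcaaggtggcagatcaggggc
Ldb3: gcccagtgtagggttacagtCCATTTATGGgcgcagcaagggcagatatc
Myl3: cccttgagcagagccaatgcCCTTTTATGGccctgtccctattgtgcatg
Myl7: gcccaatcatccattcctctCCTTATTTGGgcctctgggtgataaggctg
Myom1: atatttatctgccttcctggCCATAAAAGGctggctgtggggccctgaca
Nebl: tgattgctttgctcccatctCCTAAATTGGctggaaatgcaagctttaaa
All 7 boxes lie upstream of the start. The box was searched as CC, then 6 bases that are each A or T, then GG, which reads the same way on both strands. RefSeq promoters matched 32 of the 37 members, and 21.9% of those held a box, against 1.81% of 27025 genes. The median null minus wild-type difference was 0.26 over the 7 members with a box and 0.17 over the 24 measured members without one, on the log2 scale. All 7 had a higher mean in the null pools, as did most members without a box. Other motifs searched in the same promoters gave medians of 0.24 with CATTCC and 0.16 without, and 0.26 with TATAAA and 0.20 without. The medians were 0.20 with a MEF2 box and 0.21 without, and 0.22 with a GATA site and 0.19 without. Whether any motif goes with the difference was not tested.

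None of the 36 measured members passed the test at an adjusted p under 0.05, where 4.2% of all genes did, 2.85% higher and 1.35% lower in null embryos. Of the 36, 30 had a higher mean in the null pools, against 48.7% of all genes. The median null minus wild-type difference was 0.20 on the log2 scale over the members and -0.01 over all genes. 10 members had an unadjusted p under 0.05, all with the higher mean in null pools, where 10.6% of all genes had such a p and a higher mean. In whole embryos, more cardiac cells and more RNA per cardiac cell cannot be told apart.

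**Figure D1:**
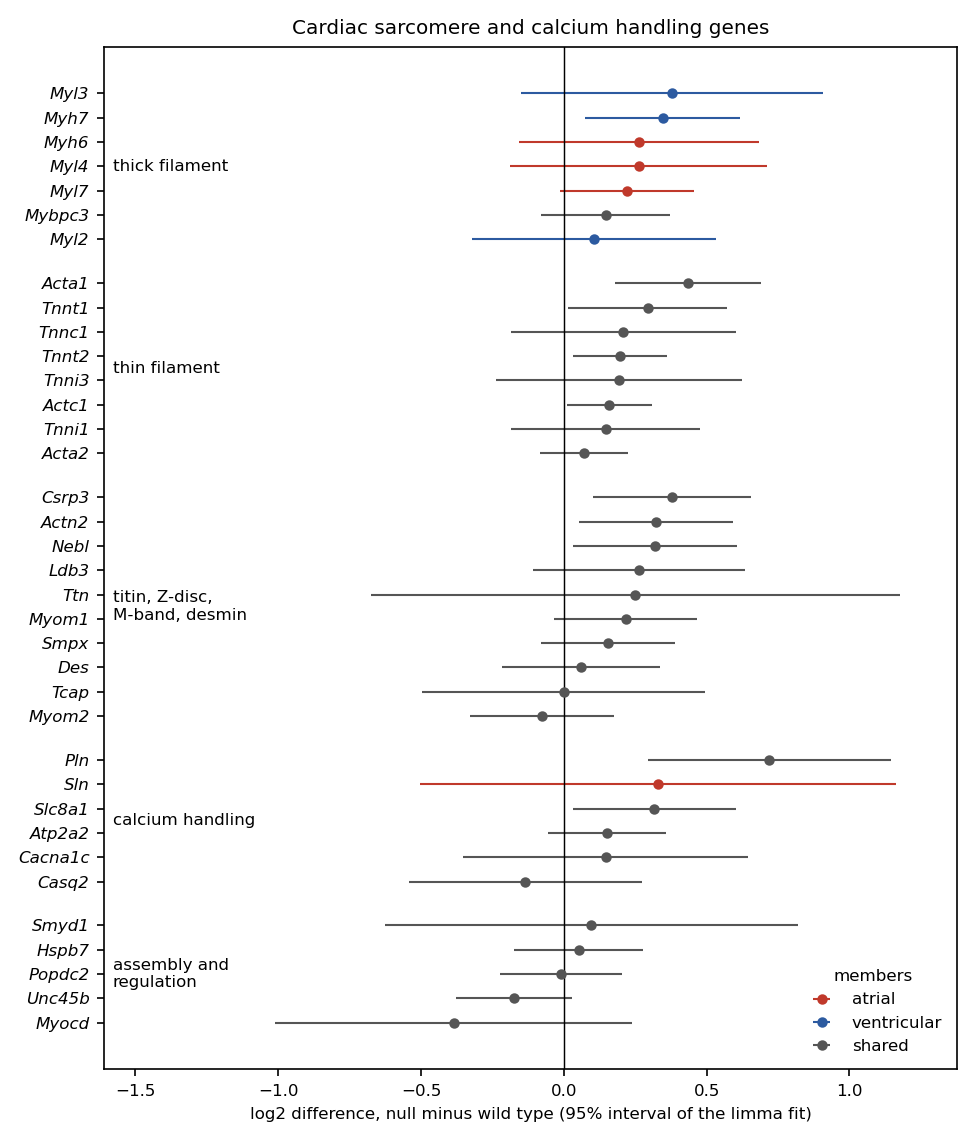
Points give the log2 difference, null minus wild type, for each of the 36 measured genes, ordered by role, with colours for atrial, ventricular and shared genes and bars for the 95% interval of the limma fit. Most points lie right of 0, with Pln farthest right at 0.72 and Myocd farthest left at -0.39, and none passed the adjusted test.

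The null and wild-type pools did not overlap for 8 members, all with the null pools higher, which is 22.2% of the members where 8.08% of all genes did so. The 8 are Acta1, Actc1, Actn2, Csrp3, Myh7, Pln, Tnnt1 and Tnnt2. No member had all null pools below all wild-type pools, where 8.06% of all genes did. This count depended on how the arrays were scaled. With each array set to its median, 3 members separated with null higher (Myh7, Pln and Slc8a1), where 3.61% of all genes did. With no scaling 2 did (Acta1 and Tnnt1), where 4.24% of all genes did. With quantile normalization 9 did, where 8.11% of all genes did, and with normexp background correction 0 did, where 2.28% of all genes did. Against the pool of the same number, which shared its slide, the null pool was higher in 4 of 4 pairs for 20 members, or 55.6%, where 22.5% of all genes were.

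Among the thick filament genes, all 7 had a higher mean in null pools, with a median log2 difference of 0.26. Myh7, the beta myosin heavy chain of slow and ventricular muscle, had log2 levels, relative to each array's 75th percentile, of 6.96, 6.64, 6.97 and 6.79 in null pools, against 6.60, 6.22, 6.63 and 6.52 in wild-type pools. The lowest null pool only just exceeded the highest wild-type pool, and in both groups pool 2 was the lowest. The difference was 0.35 ± 0.12 (SE), a 1.27-fold higher level, with an adjusted p of 0.145. With the pool number as a block the adjusted p was 0.0248. In the log2 values of the deposited table the difference was 0.18, with an adjusted p of 0.676, and the groups overlapped. They also overlapped for the second Myh7 probe, which differed by 0.30.

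Myh6, the alpha heavy chain, treated here as atrial, had log2 levels of 4.54, 3.94, 4.13 and 3.88 in null pools, against 4.19, 3.55, 3.94 and 3.76 in wild-type pools. The groups overlapped, and in both groups pool 1 was the highest. The difference was 0.26 ± 0.18, with an adjusted p of 0.482. Whether the Myh6 probe also binds Myh7 transcripts was not tested. The Myh7 probe was the brighter, with a mean log2 signal before scaling of 17.2 against 14.5.

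Myl7, the atrial regulatory light chain and a standard marker of the early heart tube, had log2 levels of 6.20, 6.59, 6.30 and 6.30 in null pools, against 6.08, 6.25, 6.02 and 6.16 in wild-type pools. Wild-type pool 2 exceeded null pool 1, so the groups overlapped. The difference was 0.22 ± 0.10, with an adjusted p of 0.273.

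Myl4, the atrial essential light chain, had log2 levels of 4.53, 5.31, 4.50 and 4.44 in null pools, against 4.41, 4.64, 4.29 and 4.39 in wild-type pools. Null pool 2 stood far above the other null pools, and wild-type pool 2 was the highest of its group. The difference was 0.26 ± 0.20, with an adjusted p of 0.513. It was 0.06 without null pool 2 and 0.13 without both pools 2, a setting chosen after the data were seen.

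Myl3, the ventricular essential light chain, had log2 levels of 3.44, 4.50, 3.51 and 3.59 in null pools, against 3.24, 3.59, 3.37 and 3.32 in wild-type pools. Again pool 2 was the highest in both groups, and null pool 2 stood apart. The difference was 0.38 ± 0.23, with an adjusted p of 0.412. It was 0.13 without null pool 2 and 0.20 without both pools 2.

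Myl2, the ventricular regulatory light chain, had log2 levels of 3.28, 4.04, 3.45 and 3.50 in null pools, against 3.14, 3.67, 3.42 and 3.64 in wild-type pools. The groups overlapped widely. The difference was 0.10 ± 0.19, with an adjusted p of 0.823. Its sign turned without null pool 2, at -0.05, but not without both pools 2, at 0.02. Mybpc3, which codes for the myosin-binding protein that tunes cross-bridge cycling, differed by 0.15 with an adjusted p of 0.462.

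The chamber classes were not tested against each other. The median log2 difference was 0.26 over the 4 atrial genes, 0.35 over the 3 ventricular genes and 0.16 over the 29 measured shared genes, and 4 of 4, 3 of 3 and 23 of 29 had a higher mean in null pools. As the mean over the 4 atrial genes of the log2 difference from each gene's wild-type mean, null pools had 0.24, 0.68, 0.23 and -0.08, against 0.02, 0.12, -0.03 and -0.10 in wild-type pools. Null pool 2 was highest, and null pool 4 lay among the wild-type pools. For the 3 ventricular genes the same mean was 0.11, 0.62, 0.20 and 0.18 in null pools, against -0.12, 0.05, 0.03 and 0.05 in wild-type pools. Here every null pool was above every wild-type pool, null pool 1 only narrowly. For the shared genes it was 0.20, 0.25, 0.12 and 0.05 in null pools, against 0.04, -0.08, 0.04 and -0.0025 in wild-type pools, a gap of 0.01 between the closest pools. Without null pool 2 the median difference was 0.10 over atrial, 0.13 over ventricular and 0.14 over shared genes. Without both pools 2, a setting chosen after the data were seen, it was 0.17 over atrial, 0.20 over ventricular and 0.11 over shared genes. With quantile normalization of all 8 pools it was 0.273 over atrial, 0.266 over ventricular and 0.189 over shared genes. In the log2 values of the deposited table it was 0.26, 0.18 and 0.18. The order of the classes thus depended on which pools were left out and on the processing.

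**Figure D2:**
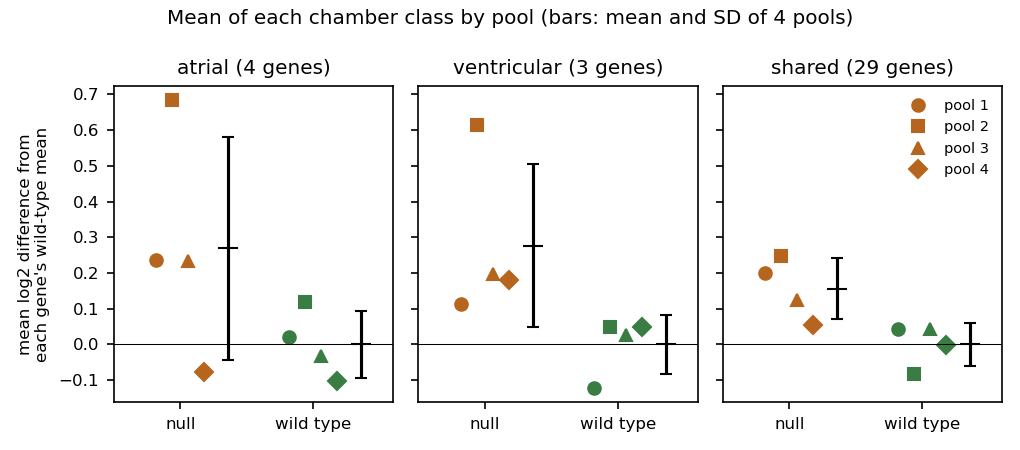
Each marker is the mean, over the atrial, ventricular or shared genes, of the log2 difference from the wild-type mean in one pool, with null pools left of wild-type pools, and the bar gives the mean and SD of 4 pools. Null pool 2 is the highest marker in each panel, at 0.68, 0.62 and 0.25.

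All 8 thin filament genes had a higher mean in null pools, with a median log2 difference of 0.20. Acta1 had log2 levels of 2.24, 2.55, 2.15 and 2.10 in null pools, against 1.92, 1.73, 1.88 and 1.78 in wild-type pools. All null pools were above all wild-type pools, with null pool 2 the highest. The difference was 0.43 ± 0.11, a 1.35-fold higher level, with an adjusted p of 0.0717. It passed with the slide as a block, with an adjusted p of 0.0456, and in the log2 values of the deposited table, with a difference of 0.49 and an adjusted p of 0.0447, where 1.87% of all genes passed as higher in that table.

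The other thin filament genes named here were chosen after their values were seen. Tnnt2, cardiac troponin T, had log2 levels of 4.15, 4.19, 4.05 and 4.06 in null pools, against 3.93, 4.00, 3.88 and 3.84 in wild-type pools. Actc1, cardiac actin, had 4.52, 4.55, 4.52 and 4.45 in null pools, against 4.35, 4.30, 4.42 and 4.34 in wild-type pools. For both genes the groups did not overlap, by a narrow gap. The differences were 0.20 ± 0.07 for Tnnt2 and 0.16 ± 0.06 for Actc1, with adjusted p of 0.165 and 0.214. Tnnt1, slow skeletal troponin T, differed by 0.29, with an adjusted p of 0.217. Troponin C (Tnnc1) and troponins I (Tnni1, Tnni3) had differences of 0.21, 0.15 and 0.19. Without null pool 2 these were 0.03, -0.0038 and 0.0068, and without both pools 2 they were 0.07, 0.02 and 0.09. Acta2, smooth muscle actin and an early cardiac actin, differed by 0.07, and its 4 kept probes ranged from -0.17 to 0.07.

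In titin, the Z-disc, the M-band and desmin, 8 of 10 genes had a higher mean in null pools, with a median log2 difference of 0.23. Csrp3, the muscle LIM protein of the Z-disc, had log2 levels of 2.06, 2.45, 1.96 and 1.96 in null pools, against 1.83, 1.75, 1.65 and 1.70 in wild-type pools. The groups did not overlap, and null pool 2 was again the highest. The difference was 0.38 ± 0.12, with an adjusted p of 0.124.

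Actn2, the alpha-actinin that crosslinks actin at the Z-disc, and Nebl, the thin filament protein nebulette, were named after their values were seen. Actn2 had log2 levels of 1.27, 1.03, 0.96 and 0.88 in null pools, against 0.87, 0.50, 0.82 and 0.65 in wild-type pools. Its groups did not overlap, by a narrow gap, and null pool 1 was the highest. The differences were 0.32 for Actn2 and 0.32 for Nebl, with adjusted p of 0.167 and 0.194, and Nebl had an adjusted p of 0.037 with the pool number as a block. The M-band genes Myom1 and Myom2 differed by 0.22 and -0.08. Ldb3, Smpx and Des differed by 0.26, 0.16 and 0.06, and Tcap by -0.0011.

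Ttn codes for titin, the molecular spring that spans the sarcomere from Z-disc to M-band, and was named for its spread between pools. It had log2 levels of 0.09, -1.52, -0.27 and -1.28 in null pools, against -0.74, -1.75, -0.63 and -0.86 in wild-type pools. Pool 2 was the lowest in both groups, and null pool 4 was nearly as low. The difference was 0.25 ± 0.40, with an adjusted p of 0.80. Its 7 kept probes, spread along the gene, had differences of -0.09 to 0.31, and in all 7 pool 2 was the lowest of its group among null pools and among wild-type pools. Probes 4, 5 and 6 from the 5′ end were well above background on only 2 null arrays and on 3 or 4 wild-type arrays. Their levels in null pool 2, at -7.70, -7.64 and -5.51, were near the floor.

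**Figure D3:**
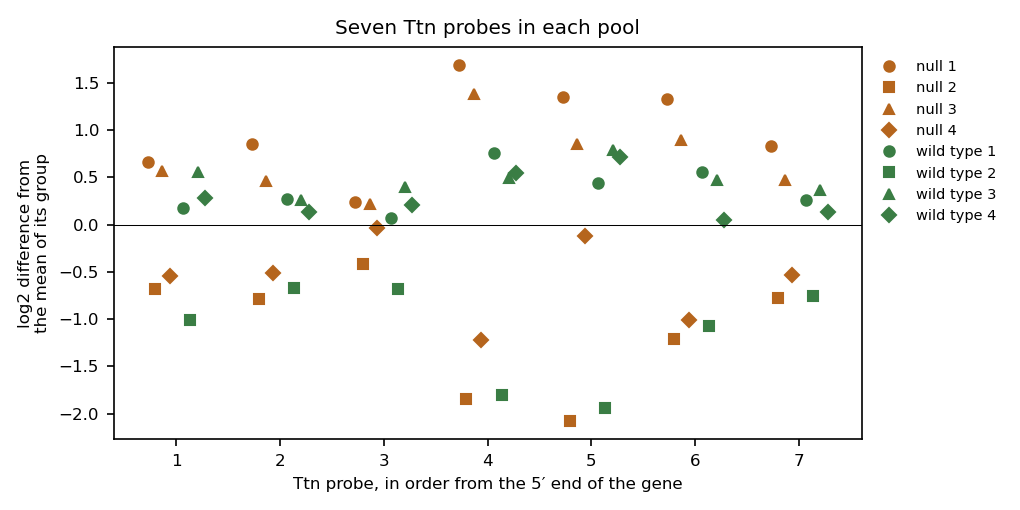
Each marker is the log2 difference of one pool from the mean of its own group for one Ttn probe, with the 7 kept probes in order from the 5′ end of the gene and null pools drawn left of wild-type pools. The square markers of pools 2 lie below 0 for every probe in both groups. Probes 4, 5 and 6 were near the floor on some arrays.

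Among the calcium handling genes, 5 of the 6 measured had a higher mean in null pools, with a median log2 difference of 0.23. Pln, phospholamban, which slows the Serca pump until it is phosphorylated, had log2 levels of -3.33, -2.98, -3.54 and -3.93 in null pools, against -4.23, -4.24, -4.02 and -4.17 in wild-type pools. All null pools were above all wild-type pools, null pool 4 least so. The difference was 0.72 ± 0.18, a 1.65-fold higher level, with an adjusted p of 0.0717. It was 1.08 on the slide of pools 1 and 2 and 0.36 on the slide of pools 3 and 4. Without null pool 4 it was 0.88 and passed, with an adjusted p of 0.0258, and in that fit 3.67% of all genes passed. In the log2 values of the deposited table it was 0.43, with an adjusted p of 0.182, and the groups overlapped. With each array set to its median it was 0.63, with an adjusted p of 0.170. Over all settings tried, normexp background correction among them, it fell as low as 0.12 and rose as high as 1.08. The Pln value rests on 1 dim probe, with a mean log2 signal of 6.75 before scaling, against 12.35 for the Atp2a2 probe. The Pln probe was well above background on all 8 arrays.

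Sln, sarcolipin, the atrial relative of phospholamban, had log2 levels of -3.27, -2.05, -2.94 and -3.88 in null pools, against -3.54, -2.91, -3.32 and -3.68 in wild-type pools. The groups overlapped, with pool 2 highest and pool 4 lowest in both. The difference was 0.33 ± 0.36, with an adjusted p of 0.681. It was 0.0013 without null pool 2 and 0.15 without both pools 2.

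The remaining calcium genes were named after their values were seen. Slc8a1, the sodium-calcium exchanger that extrudes calcium, had log2 levels of -0.68, -0.78, -0.43 and -0.55 in null pools, against -0.88, -1.21, -0.72 and -0.89 in wild-type pools. One wild-type pool exceeded one null pool, and the null pool was higher in every same-numbered pair. The difference was 0.32 ± 0.12, with an adjusted p of 0.197, and 0.034 with the pool number as a block, but its 4 kept probes ranged from -0.24 to 0.32. Atp2a2, the Serca pump, differed by 0.15 with an adjusted p of 0.400, and its 3 kept probes ranged from -0.20 to 0.15. Cacna1c, the pore of the L-type channel, differed by 0.15. Casq2, the calcium buffer calsequestrin, differed by -0.14, from a probe well above background on 1 null array and 3 wild-type arrays. The 3 probes of Ryr2, the ryanodine receptor, were not well above background on any array, so it was not measured.

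The genes of assembly, chaperoning, membrane and transcription had the lowest median of the 5 roles, with 2 of 5 higher in mean in null pools and a median log2 difference of -0.01. Unc45b, the chaperone that folds the myosin head, had log2 levels of 1.67, 1.58, 1.65 and 1.51 in null pools, against 1.86, 1.61, 1.72 and 1.92 in wild-type pools. Each null pool was below the wild-type pool of its number, although the groups overlapped. The difference was -0.17 ± 0.09, with an adjusted p of 0.322.

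Myocd, myocardin, had log2 levels of -0.61, -1.82, -1.46 and -1.60 in null pools, against -0.59, -1.32, -1.14 and -0.90 in wild-type pools. Pool 1 was the highest and pool 2 the lowest in both groups, and again every null pool was below its same-numbered wild-type pool. That held for 3 of the 36 members, where it held for 4119 of 17002 genes. The Myocd difference was -0.39 ± 0.27, with an adjusted p of 0.488, and its second probe gave -0.09. Hspb7, a small heat shock protein of heart muscle, and Popdc2, a membrane protein of the Popeye family, differed by 0.05 and -0.01.

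Smyd1, a muscle methyltransferase needed for sarcomere assembly, was named for its split by slide. It had log2 levels of 0.37, 0.98, 1.47 and 1.53 in null pools, against 0.45, 0.73, 1.36 and 1.44 in wild-type pools. Pools 3 and 4 were higher than pools 1 and 2 in both genotypes, by 0.82 in null and 0.81 in wild type, and the slide holds pools 1 and 2 or pools 3 and 4 of both groups. The null minus wild-type difference was 0.10 ± 0.31, with an adjusted p of 0.918. The second probe had log2 levels of 0.06, 0.80, 0.995 and 0.92 in null pools, against 0.09, 0.54, 0.56 and 0.71 in wild-type pools. For that probe the split by slide was less clear, with pool 1 far the lowest in both groups, and the difference was 0.22.

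Null and wild-type pools with the same number shared their deviations from the means of their groups. Over the 36 members, the deviations of null and wild-type pools correlated with r of 0.83, 0.90, 0.72 and 0.50 for numbers 1 to 4, against 0.56, 0.64, 0.52 and 0.43 over all genes. Pools of different number on the same slide had r over the members of -0.63 (null 1, wild type 2) and -0.51 (null 2, wild type 1). The values were 0.40 for null 3 with wild type 4 and -0.05 for null 4 with wild type 3. Over all genes, in the same order, r was -0.04, 0.12, 0.50 and 0.32. All these values are across genes, which are not independent replicates, and same-numbered pools share a slide. In pools 2, 13 members lay below both group means and 18 above both, with 5 divided. The 13 were Myh6, Myh7, Mybpc3, Ttn, Actn2, Ldb3, Nebl, Atp2a2, Slc8a1, Cacna1c, Smyd1, Myocd and Unc45b. The 18 included every myosin light chain, every troponin, Sln, Csrp3, Tcap and Des. The light chains and troponins thus lay on the other side of their group means from the heavy chains and titin in both pools 2. The deviations of the light chains were larger in null pool 2, at 0.74 for Myl3 and 0.61 for Myl4, than in wild-type pool 2, at 0.21 for Myl3 and 0.21 for Myl4. Null pool 2 was the farthest from its group mean for 20 of the 36 members, and wild-type pool 2 for 17. What sets pools 2 apart was not tested.

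**Figure D4:**
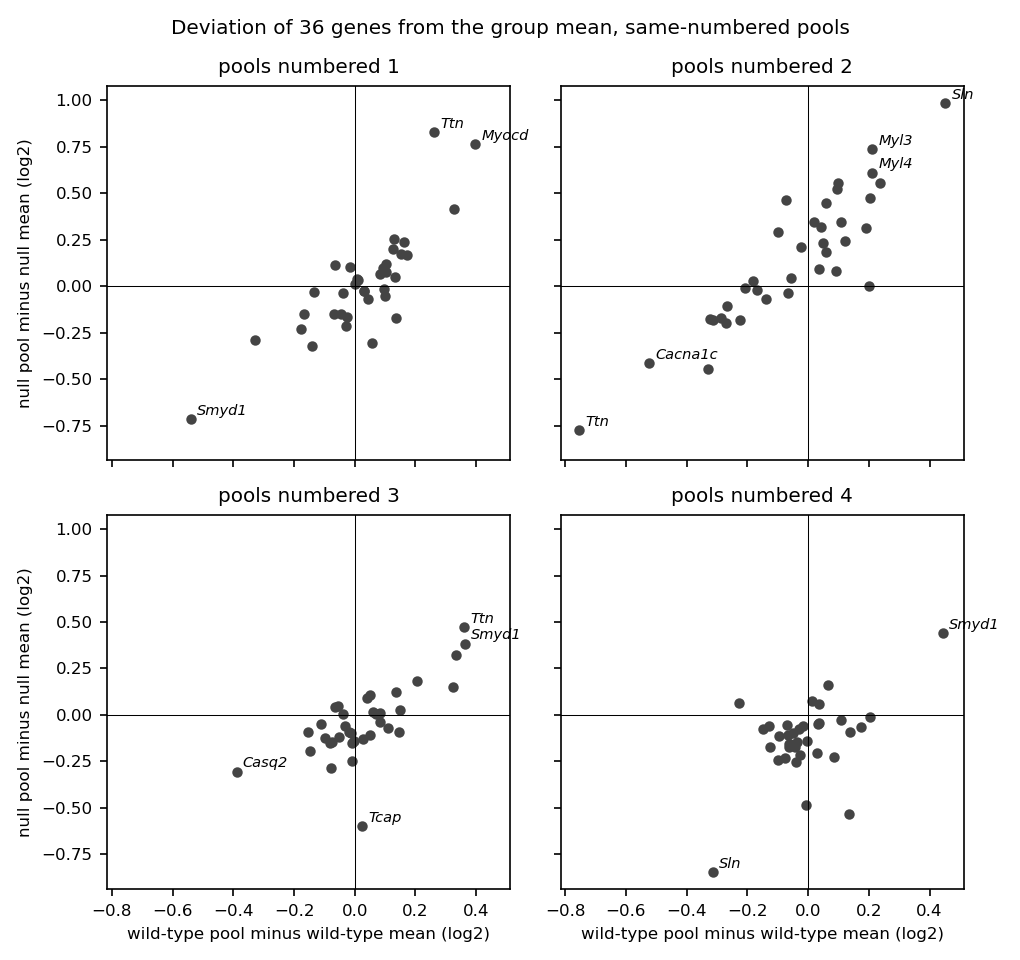
Each point is one of the 36 genes, with the log2 deviation of the wild-type pool from the wild-type mean on the horizontal axis and that of the null pool of the same number from the null mean on the vertical axis. The points run along a rising diagonal most clearly for pools numbered 2, with Ttn at the lower left and Sln at the upper right.

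**Figure D5:**
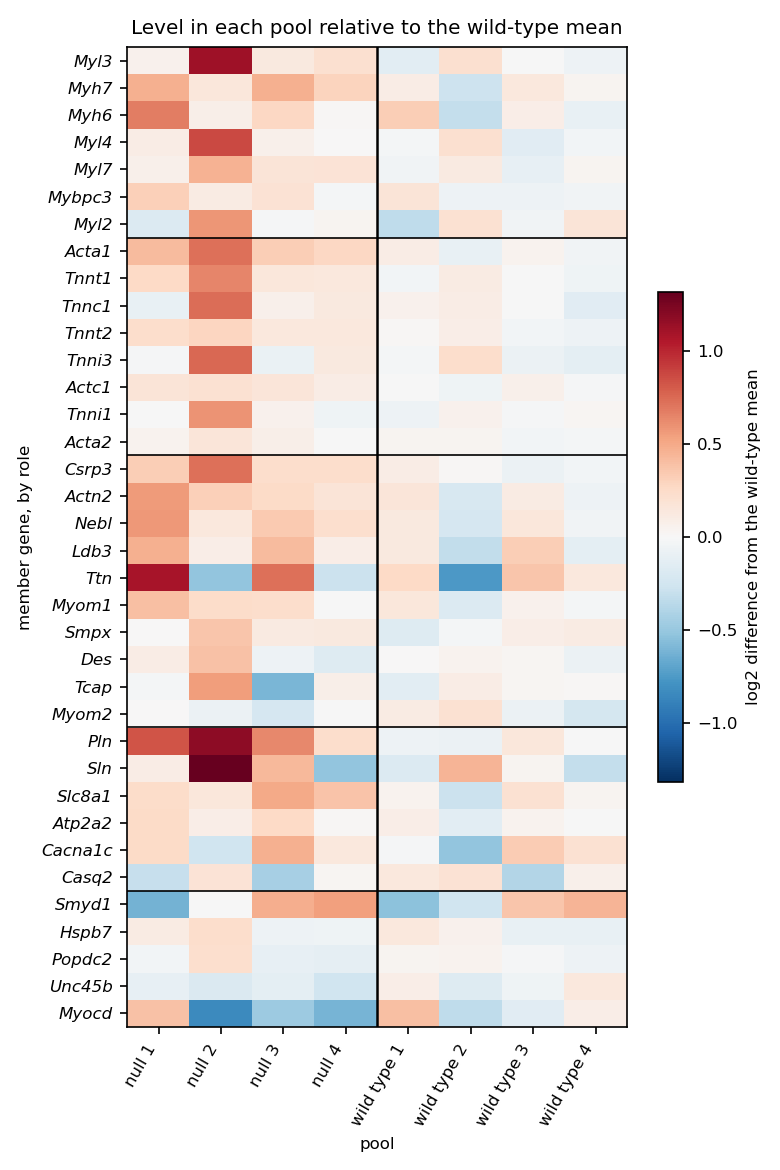
Colours give the log2 difference of each of 8 pools from the wild-type mean for the 36 genes, ordered by role, with null pools left of the line and wild-type pools right of it. Null pool 2 is the darkest red for the light chains, troponins, Pln and Sln, while Ttn is blue in both pools 2.

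With the pool number as a block, 3 members passed, Myh7, Nebl and Slc8a1, all higher in null, which is 8.33% of the members where 7.78% of all genes passed as higher. With the slide as a block 1 passed, Acta1, where 4.71% of all genes passed as higher. These shares were near the background or below it. Leaving out both pools 2, 0 members passed where 1.13% of all genes did, 29 of 36 had a higher mean in null pools and the median difference was 0.13. Of the 36, 24 kept the sign of the difference in all settings tried, 21 of them higher and 3 lower in null. The blocks leave the difference itself unchanged, so they could not turn a sign. The same count over all genes was not made.

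Other lists of genes were set beside the members, and these were chosen with earlier results of these data known. Among 35 other calcium handling genes, 3 passed, all higher in null, or 8.57%, where 2.85% of all genes did. Itpr2, a receptor that releases calcium from the endoplasmic reticulum, had log2 levels of 1.12, 0.82, 1.24 and 0.90 in null pools, against 0.23, 0.12, 0.52 and 0.39 in wild-type pools. The groups were well apart, with a difference of 0.71 ± 0.13 and an adjusted p of 0.0284. Cacna1h, a T-type calcium channel, had -1.49, -2.08, -1.89 and -2.19 in null pools, against -2.60, -2.98, -2.48 and -3.06 in wild-type pools. It differed by 0.87 ± 0.19, with an adjusted p of 0.0445, and Camk2d, a calmodulin-dependent kinase of the heart, by 0.34 ± 0.08, with an adjusted p of 0.0471.

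Among 39 other sarcomere and cardiac muscle genes, 2 passed, both higher in null, or 5.13%, where 2.85% of all genes did. Ankrd1, the cardiac ankyrin repeat protein that binds titin and responds to stretch, had log2 levels of 2.90, 2.82, 2.49 and 2.49 in null pools, against 2.02, 1.94, 2.02 and 1.82 in wild-type pools. The groups were far apart, with a difference of 0.72 ± 0.12 and an adjusted p of 0.0207. Bves, the founding Popeye family member, had 1.33, 1.40, 1.35 and 1.22 in null pools, against 0.91, 1.02, 0.999 and 0.97 in wild-type pools. It differed by 0.35 ± 0.07, with an adjusted p of 0.0365. In the 22 settings, counting the one reported, Ankrd1 passed in 11, Itpr2 in 10, Bves in 8, Cacna1h in 6 and Camk2d in 5, and none of them changed sign.

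Of the lists of cardiac transcription factors and of markers of other cell types, only the erythroid list held a gene that passed. None of 19 cardiac transcription factors passed, and 12 had a higher mean in null, with the smallest p for Gata6, a difference of 0.25 with an adjusted p of 0.167. The mean of the 9 smooth muscle markers, as the log2 difference from each gene's wild-type mean, was 0.11 to 0.22 in null pools and -0.02 to 0.02 in wild-type pools, and 0 of the 9 passed (Cnn1, the smallest p, 0.27 with an adjusted p of 0.239). The mean of 10 endothelial and endocardial markers was -0.02 to 0.31 in null pools and -0.13 to 0.11 in wild-type pools (Tie1, 0.28, adjusted p 0.0994). The mean of 5 epicardial markers was 0.01 to 0.33 in null pools and -0.15 to 0.14 in wild-type pools. Of the 5, 4 had a higher mean in null (Wt1, the smallest p, 0.51, adjusted p 0.117, with overlapping groups). Tbx18 went the other way, at -0.18 with an adjusted p of 0.246, and all its null pools were below all wild-type pools. The mean of 14 skeletal muscle markers was -0.03 to 0.03 in null pools and -0.13 to 0.11 in wild-type pools. Of the 14, 6 had a higher and 8 a lower mean in null. Chrna1, with the smallest p, differed by -0.65 (adjusted p 0.0871), from a probe well above background on 2 null arrays and 4 wild-type arrays. Actn3 differed by 0.39 (adjusted p 0.104). All 8 primitive erythroid markers had a lower mean in null, -0.68 to -0.08 in null pools and -0.20 to 0.30 in wild-type pools, and 1 passed, Klf1, a regulator of globin genes, at -0.88 ± 0.18 with an adjusted p of 0.0377. The part of these cell types in the members' values was not tested.

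The arrays had 60.9% to 65.0% of spots well above background, and no member probe was saturated. Arid3b itself was lower in null embryos, with log2 levels of 1.89, 1.83, 1.85 and 2.48 in null pools, against 3.47, 3.29, 3.39 and 3.31 in wild-type pools, a difference of -1.35 ± 0.15 with an adjusted p of 0.00577. The null level was 39.2% of wild type, with null pool 4 the highest, and the sources used here do not say whether the probe lies inside the mutated part of Arid3b. Null arrays lay at slide positions 3 and 4 and wild-type arrays at positions 1 and 2, so position and genotype cannot be told apart. The cardiac markers Tnnt2, Myl7, Actc1, Myh6 and Nkx2-5 were well above background on all 8 arrays.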

How the data were processed

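Total RNA of 4 Arid3b-null and 4 wild-type pools was measured. Per the file headers, the deposited intensity is the Feature Extraction 9.5.3.1 processed Cy3 signal, background-subtracted and detrended within each array. The deposited mean and background intensity served the normexp alternative (offset 50). The log2 values of the deposited value table, 27108 probes with column medians of 9.44 to 9.47, served as another; they correlated with log2 signals at 0.988 to 0.990, and their slope on quantile-normalized values was 0.839 to 0.853, so the direction is settled while scale and centring stay unknown.

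Control spots (1639) and 87 to 175 outlier spots per array were left out, spots averaged per probe, and each array's 75th percentile of log2 signal subtracted. Of 41174 probes, 25555 were well above background on at least 4 of 8 arrays, and the brightest stood for its gene if each group had 2 values. Names came from a RefSeq table (22944 probes by accession, 6664 by symbol, 3108 by older name, 8458 kept). Differences were fitted with limma 3.58.1 (R 4.3.3, lmFit and eBayes) on genotype alone, and p-values were adjusted by Benjamini-Hochberg across 17099 genes. The fit was tested on simulated data. Same-numbered pools correlated at 0.56, 0.64, 0.52 and 0.43, and null pool 3 with wild-type pool 4 at 0.50. The numbers, which share slides, may pair the pools, but the labels state no pairing and the reported fit used none. The replicate block is given where it changes a call. The number of arrays limits the precision.

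Members and lists were chosen with earlier results of these data known. Values per pool are given for atrial and ventricular members and, in each role, for the member with the smallest p and that with the largest difference; in other lists for up to 4 passing genes, or else the smallest p. Other scalings, filters, probe averaging, blocks, single slides and left-out pools were also run.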

Additional observations from a re-analysis of the deposited data

Results flagged for a closer look

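Of 72 groups of 4 pools examined, 3 held a pool far from the other 3 by Dixon's 95% limit, which chance passes in about 1 of 20 groups. Myl3 in null pool 2, at a log2 level of 4.50, lay above the other null pools by 0.857 of the whole range. Myl4 in null pool 2, at 5.31, lay above by 0.899 of the range. Mybpc3 in wild-type pool 1, at 4.49, lay above by 0.902 of the range. Myl3 and Myl4 are light chains, and wild-type pool 2 was also the highest wild-type pool for both.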

How the results depend on the processing

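Of the genes tested, 718 passed as reported. 204 passed with median scaling, 157 with no scaling, 164 with no filter on dim probes, 463 in the deposited table, 2343 with the replicate block, 1370 with the slide block and 193 without both pools 2. With limma, 0 passed with normexp and on slide 1 or slide 2 alone (unadjusted p under 0.05 for 737, 1880 and 2879), and 93 to 628 without 1 pool. Members passing were 3 with the replicate block, 1 with the slide block, 1 in the deposited table and 0 to 1 without 1 pool, against 0 as reported. Genes passing in the other lists, 6 as reported, were 20 with the replicate block, 11 with the slide block, 3 in the deposited table, 2 with median scaling, 2 without both pools 2 and 0 with normexp, no scaling, no filter or a single slide, and 0 to 6 without 1 pool.

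The median log2 difference over all members was 0.10 with median scaling, 0.12 with no scaling, 0.27 on slide 1, 0.11 on slide 2, 0.13 without both pools 2 and 0.14 to 0.22 without 1 pool. Median scaling set the median of all genes at -0.10 and no scaling at -0.08, so members stood 0.20 above it in each. Atrial medians were 0.38 on slide 1, 0.14 on slide 2, 0.17 without both pools 2 and 0.10 to 0.35 without 1 pool. Ventricular medians were 0.26 with median scaling, 0.21 on slide 2, 0.18 in the deposited table, 0.20 without both pools 2 and 0.13 to 0.38 without 1 pool. Shared medians were 0.11 without both pools 2, 0.065 with median scaling, 0.085 with no scaling, 0.26 on slide 1 and 0.14 to 0.21 without 1 pool. Myl2 reversed on slide 2 (-0.050), without null pool 2 (-0.053) and without wild-type pool 1 (-0.0052). The cause of these changes was not tested. Of 252 values for the 12 members that the naming rule takes (all atrial and ventricular genes, Acta1, Csrp3, Pln, Unc45b and Myocd), 245 kept direction and side of the threshold, 4 passed and 3 reversed. Over all 36 measured members, 12 changed sign in at least 1 setting, Tnni1 and Ttn among them, and Nebl and Slc8a1 also passed with the replicate block.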
